A study of Mus musculus with 5 samples.

Results

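10 genes of 2 growth factor families were described here in transplanted mouse hearts: the platelet-derived growth factor (PDGF) ligands Pdgfa, Pdgfb, Pdgfc and Pdgfd, their receptors Pdgfra and Pdgfrb, the fibroblast growth factors (FGFs) Fgf1 and Fgf2, the receptor Fgfr1, and the intracellular FGF relative Fgf13. The genes were chosen by name, with earlier results of these data known. All 10 were found, each with 1 probe set, among 21789 probe sets with a single gene symbol, which stand for 19938 genes. Hearts of C57BL/6 mice, 8 weeks old according to the methods, were implanted in the peritoneal cavity of C57BL/6 recipients, so donor and recipient were of the same strain. In the I/R group (n = 3), cold ischemia reperfusion was produced by a delay of 18 h between removal and grafting, which the heart spent at 4 °C in University of Wisconsin solution. In the non-I/R group (n = 2), hearts were implanted at once, so these grafts also went through surgery and reperfusion and are not untouched hearts. The treatment text in the labels mentions storage for every sample, while the tissue label of each graft gives its group, and the groups follow the tissue label. Grafts were harvested 24 h after transplantation by the labels and at day 2 by the paper's account of the arrays.

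Total RNA of each graft was hybridised to 1 Affymetrix Mouse Gene 1.0 ST array. The deposited values are RMA signals on a log2 scale, on which a difference of 1 is a 2-fold difference, and the medians of the 5 arrays lay between 6.58 and 6.65. The tissue is a whole graft, so fewer cells of a type and less RNA per cell cannot be told apart. Each of 10 cardiomyocyte markers, among them the troponin Tnnt2 and the myosin Myh6, was brighter than at least 96.1% of the probe sets tested. The atrial myosin light chain Myl7 had signals of 6.72, 11.08 and 8.56 in I/R grafts 1, 2 and 3, and of 10.67 and 5.52 in non-I/R grafts 1 and 2, so it differed widely within both groups, and its part in the results below was not tested. The labels do not say that the grafts came from separate animals, so p-values measure only the spread between these samples, which may be technical.

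PDGFs are secreted dimers that bind and pair 2 receptor tyrosine kinases. PDGF-B is made by endothelial cells and platelets and recruits pericytes and smooth muscle cells through Pdgfrb, while Pdgfra is the receptor of fibroblasts and other mesenchymal cells and also binds PDGF-A and PDGF-C. FGF1 and FGF2 bind FGF receptors together with heparan sulfate and are known in the heart for effects on vessel growth and on the survival of muscle cells after ischemia. Fgf13 belongs to the FGF homologous factors, which stay inside the cell, do not act through FGF receptors as secreted ligands do, and bind the tail of voltage-gated sodium channels.

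The PDGF and FGF genes did not move one way. Pdgfb and Fgfr1 were higher in the I/R grafts by limma at an unadjusted p under 0.05, and none of the 10 was lower at that threshold. Over all 21789 probe sets, 7.64% were higher and 7.35% lower by this rule. Fgf1, Fgf2, Fgf13 and Pdgfc had lower mean signals by 1.49- to 1.63-fold without passing the threshold, while Pdgfa, Pdgfd, Pdgfra and Pdgfrb differed by 1.04- to 1.14-fold. At the study's 2-fold criterion, which adds a 2-fold difference to the unadjusted p, Pdgfb was higher and no member was lower, against 0.496% higher and 1.0% lower of all probe sets. At an adjusted p of 0.05 (limma, Benjamini-Hochberg over all probe sets) no member passed, and neither did any of the 21789 probe sets (0.00%). Without adjustment 2 members passed by limma and the same 2 by the methods' t-test, whose adjusted p passed for 2 probe sets of the table and for none of the members.

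The I/R and non-I/R grafts did not overlap for 7 of the 10 genes. Every I/R graft lay above both non-I/R grafts for Pdgfb, Pdgfra and Fgfr1, as for 15.8% of all probe sets, and below both for Fgf1, Fgf2, Pdgfc and Fgf13, as for 16.2% of all probe sets. The groups overlapped for Pdgfa, Pdgfd and Pdgfrb. By their means alone 5 of the genes were higher and 5 lower, beside 44.0% and 52.5% of all probe sets, while 757 probe sets had equal means, within 0.000001 on the log2 scale. The median log2 fold change of the 10 genes was 0.01, against -0.0079 over all probe sets, and the median size of the change, whatever its sign, was 0.53, against 0.105. Nothing particular to these genes was read from the medians.

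**Figure D1:**
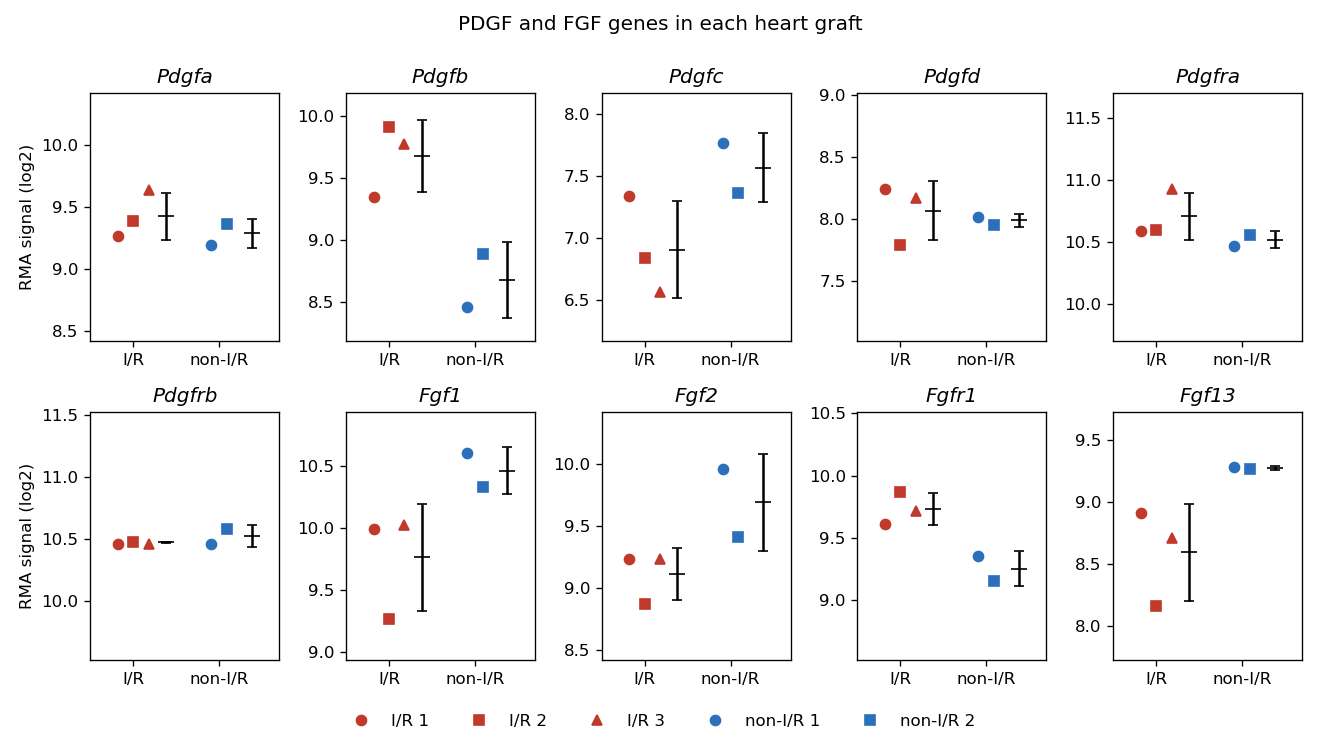
RMA signals (log2, y axis, each panel spanning the same 2 log2 units) of the 10 genes in each graft, red for I/R (n = 3) and blue for non-I/R (n = 2), a shape for each replicate, and black bars for mean ± SD. I/R grafts lie above both non-I/R grafts for Pdgfb, Pdgfra and Fgfr1 and below both for Pdgfc, Fgf1, Fgf2 and Fgf13.

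Among the 4 PDGF ligands, Pdgfb was the one higher after I/R. Pdgfb, which encodes the ligand of both PDGF receptors, had log2 signals of 9.35, 9.91 and 9.78 in I/R grafts 1, 2 and 3, against 8.46 and 8.89 in non-I/R grafts 1 and 2. The lowest I/R graft was 0.46 above the highest non-I/R graft, a gap close to the range of 0.43 between the non-I/R grafts and below the range of 0.56 among the I/R grafts. It averaged 9.68 ± 0.29 after I/R (SD, n = 3) and 8.68 ± 0.31 without I/R (SD, n = 2), a log2 fold change of 1.01 (SE 0.24, 95% interval 0.32 to 1.69, limma adjusted p = 0.286) or 2.01-fold. This difference ranked 127 from the top among the 21789 probe sets. It stood just at the 2-fold line, and under quantile normalization, cyclic loess or centring of each array on its median it was 0.97 to 1.0, so the 2-fold criterion was no longer met.

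Pdgfc, a ligand that is secreted in a latent form and acts mainly through Pdgfra, went the other way. Its log2 signals were 7.34, 6.84 and 6.57 in I/R grafts 1, 2 and 3, against 7.77 and 7.37 in non-I/R grafts 1 and 2. The groups were separate by only 0.04, between I/R graft 1 and non-I/R graft 2. The averages were 6.91 ± 0.39 after I/R (SD, n = 3) and 7.57 ± 0.28 without I/R (SD, n = 2), a log2 fold change of -0.66 (SE 0.29, 95% interval -1.48 to 0.16, limma adjusted p = 0.402). It passed an unadjusted p of 0.05 with array weights (-0.81) and without I/R graft 1 (-0.87), and in no other setting that kept both non-I/R grafts.

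Pdgfa and Pdgfd showed no difference beyond the spread between grafts. Pdgfa, whose dimer binds Pdgfra alone, had log2 signals of 9.27, 9.39 and 9.64 in the I/R grafts, against 9.20 and 9.37 in the non-I/R grafts. Its log2 fold change was 0.15 (SE 0.14, limma adjusted p = 0.591), and the interval of -0.25 to 0.54 leaves room for changes of either sign. Pdgfd, a latent ligand that acts mainly through Pdgfrb, had log2 signals of 8.24, 7.79 and 8.17 in the I/R grafts, against 8.02 and 7.95 in the non-I/R grafts. I/R graft 2 was the lowest and I/R graft 1 the highest of all 5, so the I/R grafts enclosed both non-I/R grafts. The log2 fold change of Pdgfd was 0.08 (SE 0.16, 95% interval -0.38 to 0.54, limma adjusted p = 0.788). It was -0.004 without I/R graft 1, and 0.22 without I/R graft 2, where it passed an unadjusted p of 0.05.

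Neither PDGF receptor passed the test. Pdgfra had log2 signals of 10.59, 10.60 and 10.93 in the I/R grafts, against 10.47 and 10.56 in the non-I/R grafts. Its groups were separate by 0.03 and overlapped once each array was centred on its median, with I/R graft 3 well above the other 4 grafts, and the log2 fold change was 0.19 (SE 0.13, 95% interval -0.18 to 0.56, limma adjusted p = 0.493). Pdgfrb was the steadiest of the 10 genes. Its log2 signals were 10.46, 10.47 and 10.46 in the I/R grafts, against 10.46 and 10.58 in the non-I/R grafts. The log2 fold change was -0.06 (SE 0.045, limma adjusted p = 0.522), and its interval of -0.18 to 0.07 was the narrowest among the 10 genes. Leaving out non-I/R graft 1, after which only graft 2 stood for that group, gave -0.12, past an unadjusted p of 0.05, and leaving out non-I/R graft 2 gave 0.004, not past it, so the sign of the small difference rested on which non-I/R graft was kept.

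Both secreted FGFs had lower mean signals in the I/R grafts. Fgf1, which binds all of the classical FGF receptors, had log2 signals of 9.99, 9.26 and 10.02 in I/R grafts 1, 2 and 3, against 10.60 and 10.33 in non-I/R grafts 1 and 2. All I/R grafts lay below both non-I/R grafts, with I/R graft 2 far below the other I/R grafts. The averages were 9.76 ± 0.43 after I/R (SD, n = 3) and 10.46 ± 0.19 without I/R (SD, n = 2). The log2 fold change was -0.70 (SE 0.30, 95% interval -1.55 to 0.15, limma adjusted p = 0.392), the lowest of the 10 genes, and ranked 663 from the bottom among the 21789 probe sets.

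Fgf2 had log2 signals of 9.23, 8.87 and 9.23 in I/R grafts 1, 2 and 3, against 9.96 and 9.41 in non-I/R grafts 1 and 2. The signals of I/R grafts 1 and 3 were equal to the last deposited digit, which happened for 1 of the 10 genes and, between any 2 arrays, for 11715 of the 21789 probe sets. Here too I/R graft 2 was the lowest and non-I/R graft 1 the highest. The log2 fold change of Fgf2 was -0.58 (SE 0.23, 95% interval -1.23 to 0.07, limma adjusted p = 0.366). Without non-I/R graft 1 it was -0.30 and without non-I/R graft 2 it was -0.85, so its size rested on non-I/R graft 1.

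Fgf13, the FGF homologous factor, had log2 signals of 8.91, 8.16 and 8.71 in I/R grafts 1, 2 and 3, against 9.28 and 9.26 in non-I/R grafts 1 and 2. The non-I/R grafts differed by 0.02 and the I/R grafts by 0.76, and the gap between the groups was 0.34. The averages were 8.59 ± 0.39 after I/R (SD, n = 3) and 9.27 ± 0.014 without I/R (SD, n = 2), a log2 fold change of -0.67 (SE 0.26, 95% interval -1.4 to 0.06, limma adjusted p = 0.355). With both non-I/R grafts kept, Fgf13 passed an unadjusted p of 0.05 with array weights, with median-centred arrays and without I/R graft 1 or 2. It also passed without probe sets equal on all arrays. Fgf2 passed with median-centred arrays and Fgf1 without I/R graft 2, each time as lower in the I/R grafts. With quantile normalization and with cyclic loess all 3 passed, at log2 fold changes of -0.71 to -0.70 for Fgf13, -0.61 to -0.59 for Fgf2 and -0.73 to -0.70 for Fgf1.

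Fgfr1, a receptor through which FGF1 and FGF2 signal, was higher after I/R, opposite in sign to those ligands. Its log2 signals were 9.61, 9.87 and 9.71 in I/R grafts 1, 2 and 3, against 9.35 and 9.15 in non-I/R grafts 1 and 2. The groups were separate by 0.26, as wide as the range of 0.26 within the I/R grafts. The averages were 9.73 ± 0.13 after I/R (SD, n = 3) and 9.25 ± 0.14 without I/R (SD, n = 2), a log2 fold change of 0.48 (SE 0.11, 95% interval 0.16 to 0.79, limma adjusted p = 0.284) or 1.39-fold. With both non-I/R grafts kept, Fgfr1 passed an unadjusted p of 0.05 in every other setting. Pdgfb missed it without I/R graft 2 and without I/R graft 3. An exact permutation test of 3 against 2 grafts cannot go below 0.1.

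**Figure D2:**
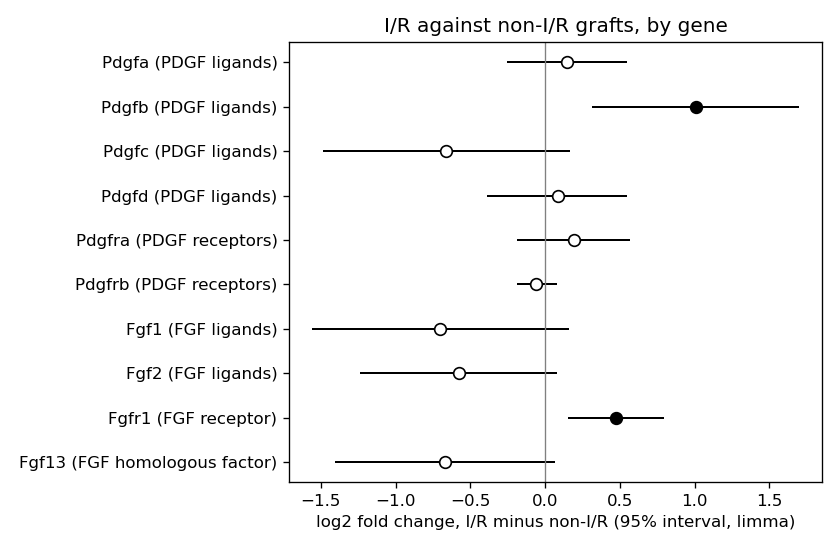
Log2 fold change of each gene, I/R minus non-I/R (x axis), with its 95% interval from limma (I/R n = 3, non-I/R n = 2), grouped by role down the page. Filled points are at an unadjusted p under 0.05, and only the intervals of Pdgfb, at 1.01, and Fgfr1, at 0.48, do not reach 0.

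Leaving out each graft in turn moved the sizes more than the signs. Fgfr1 kept log2 fold changes of 0.38 to 0.58, and it passed an unadjusted p of 0.05 by limma in 4 of the 5 fits, missing it without non-I/R graft 2. Pdgfb kept 0.79 to 1.22, but it passed only without I/R graft 1 or without non-I/R graft 2. It missed with 0.89 without I/R graft 2, 0.95 without I/R graft 3 and 0.79 without non-I/R graft 1. Fgf1 ranged from -0.84 to -0.45, Fgf13 from -0.83 to -0.45, Pdgfc from -0.87 to -0.46 and Fgf2 from -0.85 to -0.30. For Fgf1 and Fgf13 the smallest size came without I/R graft 2, for Fgf2 and Pdgfc without non-I/R graft 1. I/R graft 2 and non-I/R graft 1, the 2 grafts with the highest Myl7 signals, were also left out together after the data had been seen. I/R grafts 1 and 3 then stood against non-I/R graft 2 alone. The spread in that fit came only from I/R grafts 1 and 3, so sizes alone are given. They were 0.51 for Fgfr1, 0.675 for Pdgfb, -0.32 for Fgf1, -0.18 for Fgf2 and -0.12 for Pdgfrb.

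**Figure D3:**
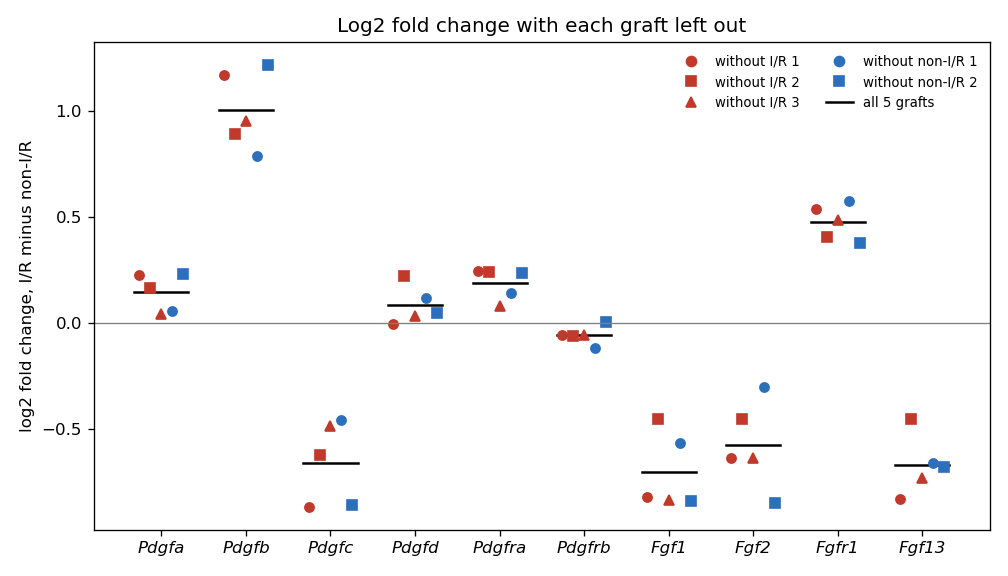
Log2 fold change of the 10 genes, I/R minus non-I/R (y axis), with 1 graft left out (red, an I/R graft; blue, a non-I/R graft; shape by replicate) and with all 5 grafts (black line). Pdgfb stays between 0.79 and 1.22 and Fgfr1 between 0.38 and 0.58, and the signs of Pdgfd and Pdgfrb turn at values next to 0.

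Whether 2 related genes moved unequally was asked within grafts, since a difference taken inside 1 graft cancels what scales both genes alike. In 4 pairs compared, the exact two-sided permutation test can give no p below 0.1, so no pair could pass 0.05. Pdgfb minus Pdgfa was 0.08, 0.52 and 0.14 on the log2 scale in I/R grafts 1, 2 and 3, against -0.74 and -0.48 in non-I/R grafts 1 and 2, a shift of 0.86 (exact permutation p = 0.1, adjusted over the 4 pairs 0.2). The groups were separate and opposite in sign, although the zero of such a difference depends on the probes and carries no meaning. Pdgfd minus Pdgfc shifted by 0.74 (exact permutation p = 0.1, adjusted 0.2), with 0.91, 0.96 and 1.60 in the I/R grafts, against 0.25 and 0.58 in the non-I/R grafts. The receptors Pdgfra and Pdgfrb shifted by 0.25 relative to each other (exact permutation p = 0.3, adjusted 0.4), mostly through I/R graft 3 at 0.46. Fgf2 minus Fgf1 shifted by 0.13 (exact permutation p = 0.6), with overlapping groups, and this shift was -0.01 without non-I/R graft 2.

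**Figure D4:**
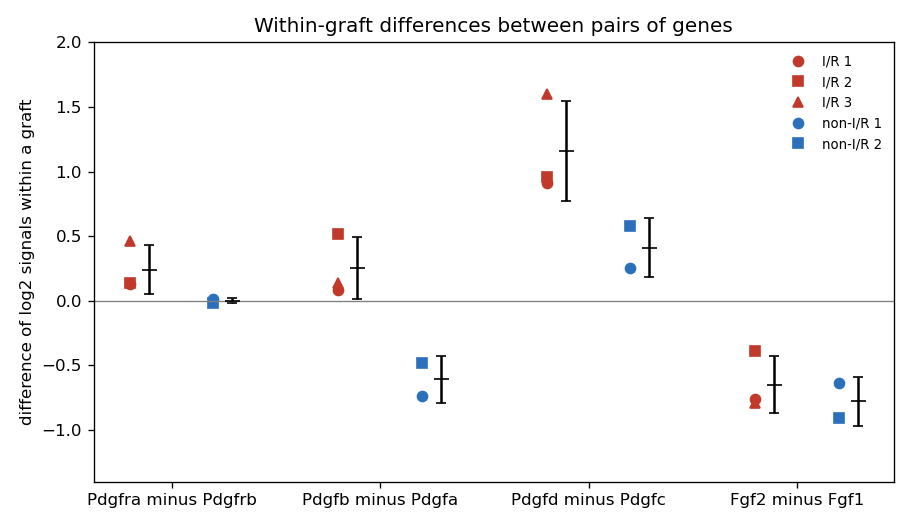
Difference of the log2 signals of 2 genes within each graft (y axis) for 4 pairs, red for I/R (n = 3) left of blue for non-I/R (n = 2), and black bars for mean ± SD. The groups are separate for Pdgfb minus Pdgfa, Pdgfd minus Pdgfc and Pdgfra minus Pdgfrb, and overlap for Fgf2 minus Fgf1.

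For 6 of the 10 genes, RefSeq windows of 300 bases around the annotated transcript starts (250 before and 50 after, GRCm38.p6) were at hand, 10 windows in all, of which 4 belong to Fgf13 and 2 to Pdgfa. Those of the 3 genes with lower, separate I/R groups are shown, since they hold matches to motifs of factors known from muscle genes and housekeeping promoters, and for Fgf13 the window with the match was chosen among its 4. Capitals mark the match, and positions count from the start, which is 1, with no position 0. In Pdgfc (chr3:81036166-81036465, plus strand) they mark a CArG box, the binding motif of serum response factor, at -17 to -8, in Fgf13 (chrX:59585523-59585822, minus strand) a MEF2 site at -152 to -143, and in Fgf2 (chr3:37348403-37348702, plus strand) a GC box at -49 to -44.
Pdgfc: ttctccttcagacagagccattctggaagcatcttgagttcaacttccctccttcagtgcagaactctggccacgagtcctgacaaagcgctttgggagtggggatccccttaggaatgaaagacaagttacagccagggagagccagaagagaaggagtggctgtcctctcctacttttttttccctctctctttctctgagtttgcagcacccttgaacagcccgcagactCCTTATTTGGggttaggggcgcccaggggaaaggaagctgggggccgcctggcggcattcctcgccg
Fgf13: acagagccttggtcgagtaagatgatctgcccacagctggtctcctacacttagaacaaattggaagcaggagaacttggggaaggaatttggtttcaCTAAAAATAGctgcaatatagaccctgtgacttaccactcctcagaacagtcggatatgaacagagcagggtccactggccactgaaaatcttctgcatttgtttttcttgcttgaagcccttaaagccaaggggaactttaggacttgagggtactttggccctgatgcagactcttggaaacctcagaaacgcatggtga
Fgf2: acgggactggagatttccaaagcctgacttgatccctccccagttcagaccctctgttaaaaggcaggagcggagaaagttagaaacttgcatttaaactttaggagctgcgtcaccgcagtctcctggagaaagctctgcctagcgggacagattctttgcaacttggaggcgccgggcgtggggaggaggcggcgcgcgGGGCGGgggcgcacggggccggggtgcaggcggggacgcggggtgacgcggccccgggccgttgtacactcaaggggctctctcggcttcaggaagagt
6 motifs were searched on both strands. The CArG box was found in 1 of the 10 windows and in 1.63% of the 32851 mouse windows of this length, the MEF2 site in 1 and in 3.19%, and the AP-1 site TGANTCA in 1, another start of Fgf13, and in 7.81%. The GC box GGGCGG was found in 5 windows, of Fgf2, Fgf13 and Pdgfa, and in 35.7% of all windows, while the cyclic AMP response element TGACGTCA and the hypoxia response core ACGTG were found in none of the 10, against 1.79% and 19.6% of all windows. None of the matches shown overlaps another of the searched motifs. A match describes the letters of a window and says nothing of binding in these grafts, and signals of the 4 Fgf13 starts are not told apart by its single probe set.

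Around these genes, 91 of 101 listed pathway genes were measured, of which 11 were higher and 8 lower in the I/R grafts at an unadjusted p under 0.05 by limma, beside 7.64% and 7.35% of all probe sets. None passed the adjusted p. Of 16 other secreted FGFs, none was higher and 2 were lower, with a median log2 fold change of -0.06. Fgf18 had log2 signals of 7.85, 7.59 and 7.85 in the I/R grafts, against 8.68 and 8.50 in the non-I/R grafts. Its log2 fold change was -0.82 (SE 0.12, limma adjusted p = 0.282), and it passed in every other setting that kept both non-I/R grafts. Fgf9, a ligand made by the epicardium and endocardium of the developing heart, had -0.48 (SE 0.16, limma adjusted p = 0.319). The cardiomyocyte FGF Fgf16 had overlapping groups with 0.05 (SE 0.42), and Fgf10 had -0.09 (SE 0.055). The other homologous factors Fgf11, Fgf12 and Fgf14 had -0.27, 0.07 and -0.82, none past the threshold. Fgf14 was separate and lower like Fgf13, with 5.88, 5.23 and 5.53 in the I/R grafts, against 6.72 and 6.02 in the non-I/R grafts. It was dim, brighter than 30.0% of the probe sets tested, against 74.6% for Fgf13. None of 9 measured sodium channel subunits, the partners of the homologous factors, passed. Of these, 7 had lower means, and 2 had the same value on all arrays.

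The higher signal of Fgfr1 had no counterpart in the other FGF receptors, which were dimmer. Fgfr1 was brighter than 83.9% of the probe sets tested, against 31.4% for Fgfr2, 50.2% for Fgfr3 and 41.1% for Fgfr4. Whether probe sets this dim could show a change was not tested. Fgfr2, Fgfr3 and Fgfr4 had log2 fold changes of 0.03, -0.08 and -0.04, with SEs of 0.036, 0.051 and 0.057, and none of 8 receptors, co-receptors and binding proteins passed. That Fgfr1 changed more than the other receptors was not tested. Among the proteases that release active PDGF-C and PDGF-D, the urokinase Plau, an activator of PDGF-D, was higher, with log2 signals of 8.27, 8.31 and 8.73 in the I/R grafts, against 7.78 and 7.40 in the non-I/R grafts, a log2 fold change of 0.84 (SE 0.21, limma adjusted p = 0.286). Plat, the tissue plasminogen activator that cleaves PDGF-C, had 0.10 (SE 0.11, limma adjusted p = 0.634). Of 17 heparan sulfate proteoglycans and enzymes, 1 was higher and 2 were lower, namely syndecan 1, Sdc1, with 0.53 (SE 0.14), glypican 4, Gpc4, with -0.55 (SE 0.16), and the sulfatase Sulf2 with -0.31 (SE 0.092).

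Downstream of the receptors, genes of both signs were called. Of 18 adaptors and kinases of the RAS-ERK pathway, 5 were higher and 3 lower. The docking protein Gab1 had -0.73 (SE 0.058, limma adjusted p = 0.273), with the smallest adjusted p among the pathway genes but not the lowest log2 fold change. Its log2 signals were 9.32, 9.19 and 9.21 in the I/R grafts, against 10.01 and 9.92 in the non-I/R grafts. The PI3-kinase regulatory subunit Pik3r1 had -0.80 (SE 0.16) and the FGF receptor substrate Frs3 -0.19 (SE 0.060), while the small GTPase Nras had 0.96 (SE 0.23), the kinase Map2k1 0.33 (SE 0.10), the ubiquitin ligase Cbl 0.41 (SE 0.13) and the adaptor Crkl 0.19 (SE 0.055). Of 14 feedback inhibitors of ERK and ETS factors, 4 were higher, the inhibitors Spred1 with 0.43 (SE 0.045), Spred3 with 1.03 (SE 0.22) and Spry2 with 0.54 (SE 0.19) and the ERK phosphatase Dusp5 with 0.92 (SE 0.27). The ETS factor Etv1 was lower with -1.26 (SE 0.39), and -1.21 from its other probe set. Dusp6 had 0.49 (SE 0.22, limma adjusted p = 0.406). Etv4 and Etv5, ETS factors like Etv1, had -0.08 and -0.33, both with overlapping groups, and the other probe set of Etv5 had -0.0095. All of these lists were written with earlier results of these data known, so their counts are not independent evidence.

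**Figure D5:**
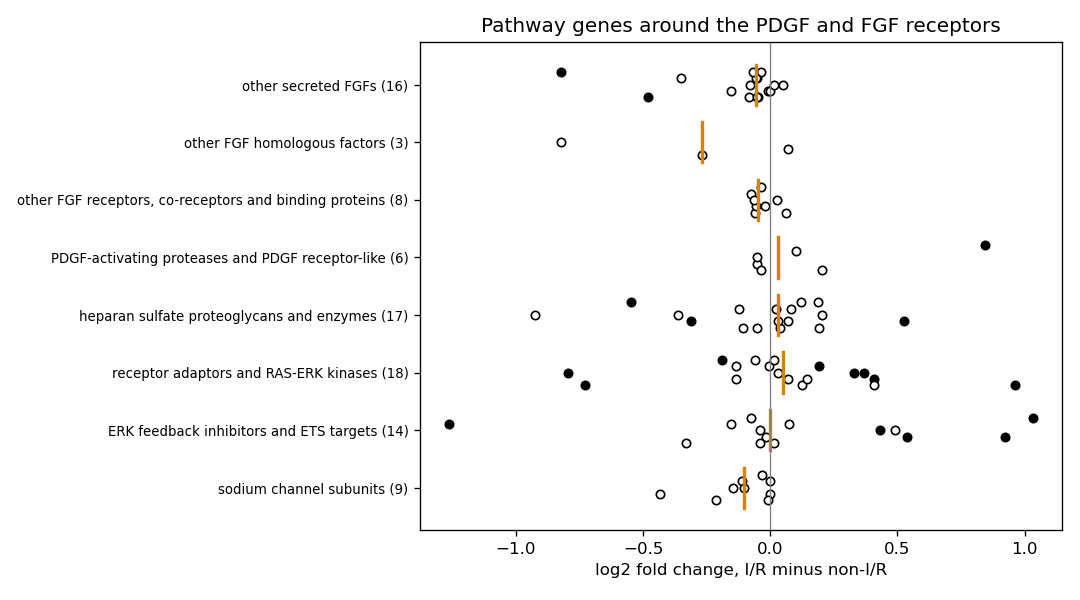
Log2 fold change, I/R minus non-I/R (x axis), of 91 pathway genes in 8 lists (number measured in parentheses), 1 point for each gene, filled at an unadjusted p under 0.05 by limma, with the median of each list as an orange line. Medians lie between -0.27, for the 3 homologous factors, and 0.05, for the adaptors and kinases, and Etv1 at -1.26 and Spred3 at 1.03 are the outermost points.

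Lists of markers of cells in which these genes are known to be expressed, or which the grafts could hold, were read beside them, and their part in the results was not tested. RMA gives no probe set a value of 0, so no marker is absent on this scale. All 10 cardiomyocyte markers had lower means in the I/R grafts, 9 of them at an unadjusted p under 0.05 by limma, with a median of -0.53, and their summed linear signals were 51500 to 64110 in the I/R grafts, against 81950 to 91820 in the non-I/R grafts. This stands beside the lower means of Fgf1, Fgf2 and Fgf13. Fibroblast markers, beside Pdgfra and Pdgfc, had lower means for 9 of 10 genes with a median of -0.33. That median was -0.107 without non-I/R graft 1 and -0.543 without non-I/R graft 2. Only decorin, Dcn, passed, and only Dcn had separate groups. The fibroblast markers summed to 9125 to 11400 in the I/R grafts, against 12150 to 18460 in the non-I/R grafts. Dcn, the brightest of them with means of 12.04 after I/R and 12.76 without, weighs most in these sums. Whether the sums separate without Dcn was not tested. Pericyte markers, beside Pdgfrb, had lower means for all 7 genes with a median of -0.66, which was -0.29 without I/R graft 2. Their sizes were uneven. Higd1b and Cspg4 had -0.13 and Notch3 -0.14, against -0.66 for Kcnj8 and Vtn and -0.75 for Rgs5. Only the channel subunit Abcc9, at -1.05, passed. The pericyte markers summed to 2895 to 4384 in the I/R grafts, against 5712 to 6380 in the non-I/R grafts.

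Beside Pdgfb, the summed signals of platelet and of endothelial markers overlapped between the groups. Of 6 platelet markers, 5 had higher means and none passed, and they summed to 3822 to 10210 in the I/R grafts, against 4513 to 4525 in the non-I/R grafts. Their mean deviation from the average of all grafts was -0.51, 0.91 and -0.11 in I/R grafts 1, 2 and 3, against -0.093 and -0.196 in non-I/R grafts 1 and 2. Among the I/R grafts this is the order of Pdgfb, but endothelial, smooth muscle and neutrophil markers shared it, so it is not particular to platelets. The platelet markers of I/R graft 1 lay below, and Pdgfb there above, both non-I/R grafts. Smooth muscle and neutrophil markers repeated the order of Pdgfb over all 5 grafts. Of 10 endothelial markers, 7 had higher means and none passed, although Cldn5 and Emcn were separate and higher and Tek was separate and lower in the I/R grafts, with sums of 12100 to 15170 in the I/R grafts, against 12230 to 12660 in the non-I/R grafts. Smooth muscle markers had higher means for 6 of 7 genes with a median of 0.17 (0.09 to 0.26 with 1 graft left out). None passed, and only Acta2 and Cnn1 had separate groups. They summed to 3532 to 4537 in the I/R grafts, against 2425 to 3235 in the non-I/R grafts. Acta2, the brightest of the 7 with means of 11.19 after I/R and 10.45 without, weighs most in these sums. Neutrophil markers had higher means for all 8 genes, 5 of them past the threshold, with sums of 8729 to 15920 in the I/R grafts, against 4685 to 6459 in the non-I/R grafts. Of 10 macrophage markers, 4 had higher and 6 lower means, with a median of -0.1 (-0.41 to 0.22 with 1 graft left out). Only Ccr2 passed, as higher, with 0.72. The macrophage sums overlapped, with 11280 to 15550 in the I/R grafts, against 11400 to 16490 in the non-I/R grafts.

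Genes whose pattern over the 5 arrays was nearest to that of Pdgfb and Fgf1, the members with the highest and the lowest log2 fold change, were found by the root mean square difference of log2 signals centred on their own mean. Nearest to Pdgfb were Fhl3 at 0.0402, the transcription factor Klf6 at 0.0548 and the non-muscle myosin Myh9 at 0.0625, with log2 fold changes of 1.08, 1.07 and 0.94. Klf6 had log2 signals of 10.79, 11.29 and 11.09 in the I/R grafts, against 9.76 and 10.21 in the non-I/R grafts, which repeats the order of the grafts in Pdgfb. Nearest to Fgf1 were the calmodulin-binding transcription activator Camta1 at 0.0284, the choline phosphotransferase Chpt1 at 0.0351 and the homeobox factor Meis2 at 0.0358, with log2 fold changes of -0.69, -0.71 and -0.63. Camta1 had 11.40, 10.67 and 11.49 in the I/R grafts, against 12.04 and 11.71 in the non-I/R grafts, again with I/R graft 2 lowest. The distances, over 5 arrays and 21789 probe sets, are descriptions.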

How the data were processed

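RNA of 5 heart grafts, 3 I/R and 2 non-I/R, was measured on 1 Affymetrix Mouse Gene 1.0 ST array each. The authors deposited log2 values made with Partek and RMA (submitters' processing notes, no versions given), which corrects the background and puts arrays on a common distribution, so that a shift common to most genes would not show. No genome build of the arrays is given in the sources used here. Of 35556 probe sets, 21789 have 1 symbol in the platform annotation, 1621 have several and 12146 are not listed. Symbols were updated through gene IDs (GRCm38.p6 table, 99.6% found). The log2 values were tested as deposited by lmFit and eBayes of limma (3.58.1, R 4.3.3, prior df of 0.824), with p-values adjusted by the Benjamini-Hochberg method over all 21789, and the steps were tested on simulated data. For genes with several probe sets the brightest was used. All 10 members are named, and from each list up to 4 genes with the smallest unadjusted p under 0.05 in each direction, plus a fixed set. Fgf11 and Fgf14 were named after their values were seen. The members and lists were chosen with earlier results of these data known. Alternatives were eBayes settings, the methods' t-test, array weights, normalizations, filters and leaving out arrays. The number of arrays limits the precision. Figures were drawn with matplotlib 3.10.9.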

Additional observations from a re-analysis of the deposited data

How the results depend on the processing

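No paired analysis was possible because the labels give no replicate numbers, and numbers in accession order only name the grafts. Of 170 recomputed log2 fold changes of the 10 genes, 2 turned in sign, Pdgfd to -0.004 without I/R graft 1 and Pdgfrb to 0.004 without non-I/R graft 2. The 170 include the fit without both I/R graft 2 and non-I/R graft 1, so they are not counted by p. The count of lower genes, 0 as reported, was 2 with array weights, 2 with median-centred arrays, 3 with quantile normalization, 3 with cyclic loess, 1 without probe sets equal on all arrays, and 0 to 2 with 1 graft left out. The count of higher genes was 1 to 2 with 1 graft left out. The 2-fold count, 1 as reported, was 0 with median-centred arrays, quantile normalization and cyclic loess, and 0 to 1 with 1 graft left out. Genes with separate, higher I/R groups numbered 3 to 5 with 1 graft left out. Centring each array on its median left 2 of them, since Pdgfra then overlapped. Without both I/R graft 2 and non-I/R graft 1, chosen after seeing the data, non-I/R graft 2 stood alone, so no count is given. Pdgfb was then at 0.675, below the 2-fold line, and Pdgfrb at -0.121. With 1 graft left out, Fgf2 minus Fgf1 lay between -0.01 and 0.26. The cause of these shifts was not tested. With a graft left out of the non-I/R group, the lone one is assumed to vary like the I/R grafts.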
